A study of Mus musculus with 12 samples.

Results

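The 10 genes described here belong to the ATF4 branch of the integrated stress response and to the unfolded protein response of the endoplasmic reticulum (ER): Atf4, Atf5, Ddit3, Trib3, Chac1, Asns, Sesn2, Hspa5, Xbp1 and Herpud1. They were taken by symbol, through their Ensembl identifiers, from the 57180 genes counted in each kidney library, of which 17163 passed a filter on low counts and were tested. Of the 10 genes, 9 passed this filter, and Chac1, with 0 to 13 counts per library, did not.

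Poly(A) RNA was measured by RNA-Seq in kidneys of 12 young adult male C57BL/6J mice, a standard inbred strain, with 1 library per mouse and 4 mice per group. All groups received 1 intraperitoneal injection a day for 28 days of the same vehicle, saline with Tween 80. The control group (Control) received the vehicle alone, and the treated groups received it with cannabidiol (CBD), a compound of hemp, at 10 mg/kg b.w. (10CBD) or 20 mg/kg b.w. (20CBD). The same 4 control mice served both comparisons with Control. The comparisons ask whether a longer period of CBD at each dose altered the mRNA levels of these genes in the kidney, and whether the doses differed.

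When unfolded proteins gather in the ER, or when amino acids run short, kinases phosphorylate the initiation factor eIF2. General protein synthesis then slows while ATF4, a transcription factor, is translated from its waiting mRNA and switches on genes of amino acid supply and, under lasting stress, of cell death. In parallel, the sensors IRE1 and ATF6 raise the chaperones and the disposal machinery of the ER, IRE1 through unconventional splicing of Xbp1 mRNA. ATF4 is thus controlled largely at translation and XBP1 by splicing, and neither step is seen in counts per gene. The proximal tubule of the kidney makes and recycles large amounts of membrane protein and is known to engage this response when it is injured.

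The libraries held 15417867 to 23532088 counts on genes. Mitochondrial genes took 3.53% to 5.77% of the counts in 4 libraries (Control replicate 2, 10CBD replicates 1 and 3, 20CBD replicate 3) and 12.8% to 23.4% in the other 8, so values of results that rest on the former are also given without them. Among the other 8, the 10CBD group is represented only by replicates 2 and 4, so its values there rest on few mice. The 5 proximal tubule markers summed to 22375 to 29655 CPM (counts scaled to a common library size after TMM normalization) over the mice. Most of this sum was Kap, with group means of 18538 to 19949 CPM. Of these markers, Slc5a2 fell by 0.61 (log2) in 20CBD (adjusted p = 0.0820) and Lrp2 had -0.76 (adjusted p = 0.173), both without overlap with Control. There Slc34a1 had -0.23, Slc22a6 -0.035 and Kap 0.11, each with overlap and not called. The 5 exocrine pancreas markers summed to at most 0.437 CPM. The 4 adipocyte markers had lower values in the treated groups, none of them called, and summed to 6.50 to 95.2 CPM in Control, 0.949 to 34.9 CPM in 10CBD and 0.420 to 18.3 CPM in 20CBD. The summed level of 5 plasma and B cell markers, which would mark secretory cells rich in ER, was 10.3 to 36.8, 12.99 to 42.9 and 15.7 to 59.0 CPM in the same order. The markers did not move as 1 list. In 20CBD the log2 fold changes were 1.19 for Igkc, 1.17 for Ighm, 0.99 for Jchain and -0.47 for Cd79a, none of them called. Mzb1 did not pass the filter on low counts. The part of these cells in the results was not tested, and in whole tissue fewer cells of a type and less RNA per cell cannot be told apart.

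The promoters of the genes that respond to ER stress carry short known elements, which are shown here for the members whose values or elements the results turn on. The ER stress response element (ERSE), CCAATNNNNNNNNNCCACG, and its shorter relative ERSE-II, made of ATTGG, any base and CCACG, are bound through ATF6 and XBP1, and the C/EBP-ATF response element (CARE), TGATGNAA, is bound by ATF4 with its partners. The 250 bases before the start of the canonical transcript were searched on both strands in the GRCm39 genome. The CCAAT of an ERSE is by itself a CCAAT box, a common promoter element present in 36.5% of the 21770 promoters searched. ERSE was found in 0.115% of them, ERSE-II in 0.0551% and CARE in 3.39%. Among the members, Hspa5 held an ERSE, Herpud1 an ERSE-II and a CARE, and Ddit3 and Chac1 a CARE. The matched letters are in capitals, and all promoters are written 5′ to 3′ on the strand of the gene.
Hspa5, chr2:34661854-34662103, plus strand, ERSE at -67 to -49: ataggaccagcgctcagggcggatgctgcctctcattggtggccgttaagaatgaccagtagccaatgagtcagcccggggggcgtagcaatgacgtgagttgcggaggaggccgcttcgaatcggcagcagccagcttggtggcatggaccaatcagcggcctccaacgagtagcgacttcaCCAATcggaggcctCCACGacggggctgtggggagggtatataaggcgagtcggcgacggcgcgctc
Herpud1, chr8:95112787-95113036, plus strand, CARE at -92 to -85 and ERSE-II at -32 to -22: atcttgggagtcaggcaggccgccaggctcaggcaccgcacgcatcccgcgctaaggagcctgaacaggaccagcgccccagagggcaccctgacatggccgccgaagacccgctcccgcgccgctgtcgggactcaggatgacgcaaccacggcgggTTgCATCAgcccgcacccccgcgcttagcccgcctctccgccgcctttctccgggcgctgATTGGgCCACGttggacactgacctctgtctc
Ddit3, chr10:127126310-127126559, plus strand, CARE at -199 to -192: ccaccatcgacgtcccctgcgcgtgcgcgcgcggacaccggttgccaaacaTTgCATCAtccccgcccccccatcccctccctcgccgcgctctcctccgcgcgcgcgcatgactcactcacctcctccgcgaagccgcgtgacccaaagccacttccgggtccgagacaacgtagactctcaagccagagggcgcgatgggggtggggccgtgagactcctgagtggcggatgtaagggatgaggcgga
Chac1, chr2:119181439-119181688, plus strand, CARE at -159 to -152: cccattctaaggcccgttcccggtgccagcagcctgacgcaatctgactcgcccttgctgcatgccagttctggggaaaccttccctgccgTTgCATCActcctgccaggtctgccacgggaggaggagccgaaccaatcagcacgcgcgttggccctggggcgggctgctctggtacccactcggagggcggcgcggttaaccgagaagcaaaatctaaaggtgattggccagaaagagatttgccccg
The windows of the other 7 members held no CARE, and a match is a description of letters and not of a bound site. Other start sites, bases outside the windows and other spellings of the elements were not searched, so a gene without a match may still hold an element. In Ddit3, Chac1 and Herpud1 the CARE lies on the opposite strand, so that it reads TTgCATCA in the sequences above.

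In control kidneys the members covered a wide range of levels. Per kilobase of canonical transcript, Atf4 had the highest mean level, 61.1 ± 11.5 CPM per kb (SD, n = 4), and Hspa5, which encodes the main chaperone of the ER (BiP), followed with 56.0 ± 6.57 CPM per kb. The ranges of these 2 genes over the control mice overlapped. Herpud1, a membrane protein of ER-associated degradation, had 44.9 ± 7.03 CPM per kb. Xbp1 had 28.5 ± 3.79 CPM per kb and Sesn2 had 19.1 ± 2.84 CPM per kb, and each of these lay apart from its neighbours in the order. Ddit3 with 12.6 ± 1.64 CPM per kb and Atf5 with 8.14 ± 2.10 CPM per kb overlapped each other. Trib3, Asns and Chac1 were expressed at a very low level, with 0.394 ± 0.0756, 0.385 ± 0.0725 and 0.193 ± 0.0989 CPM per kb. All 3 are genes that ATF4 is known to induce.

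No member passed the main test, that of edgeR, in any comparison. At the threshold used, a Benjamini-Hochberg adjusted p-value under 0.1 in edgeR's quasi-likelihood test, 0 of the 9 members tested were called between 10CBD and Control, where 0.0291% of all genes were called, 0 between 20CBD and Control, where 0.303% were called, and 0 between the doses, where 0% were called. At an unadjusted p under 0.05 there were 3 members in 10CBD (Herpud1, Hspa5 and Sesn2), 1 in 20CBD (Herpud1) and 1 between the doses (Hspa5), beside 5.67%, 8.45% and 6.31% of all genes tested. The 1 of 9 in the last 2 comparisons is near these shares. DESeq2 called 1 member, Herpud1 in 20CBD, where it called 1.06% of all genes. It called 0 members in 10CBD and between the doses, beside 0.233% and 0.0699% of all genes. All log2 fold changes below are from the edgeR fit and are written as the first group named minus the second. The median log2 fold change of the 9 members was 0.15 in 10CBD and 0.13 in 20CBD, beside 0.012 and 0.015 for all genes tested. Between the doses it was 0.049, beside -0.0033 for all genes.

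**Figure D1:**
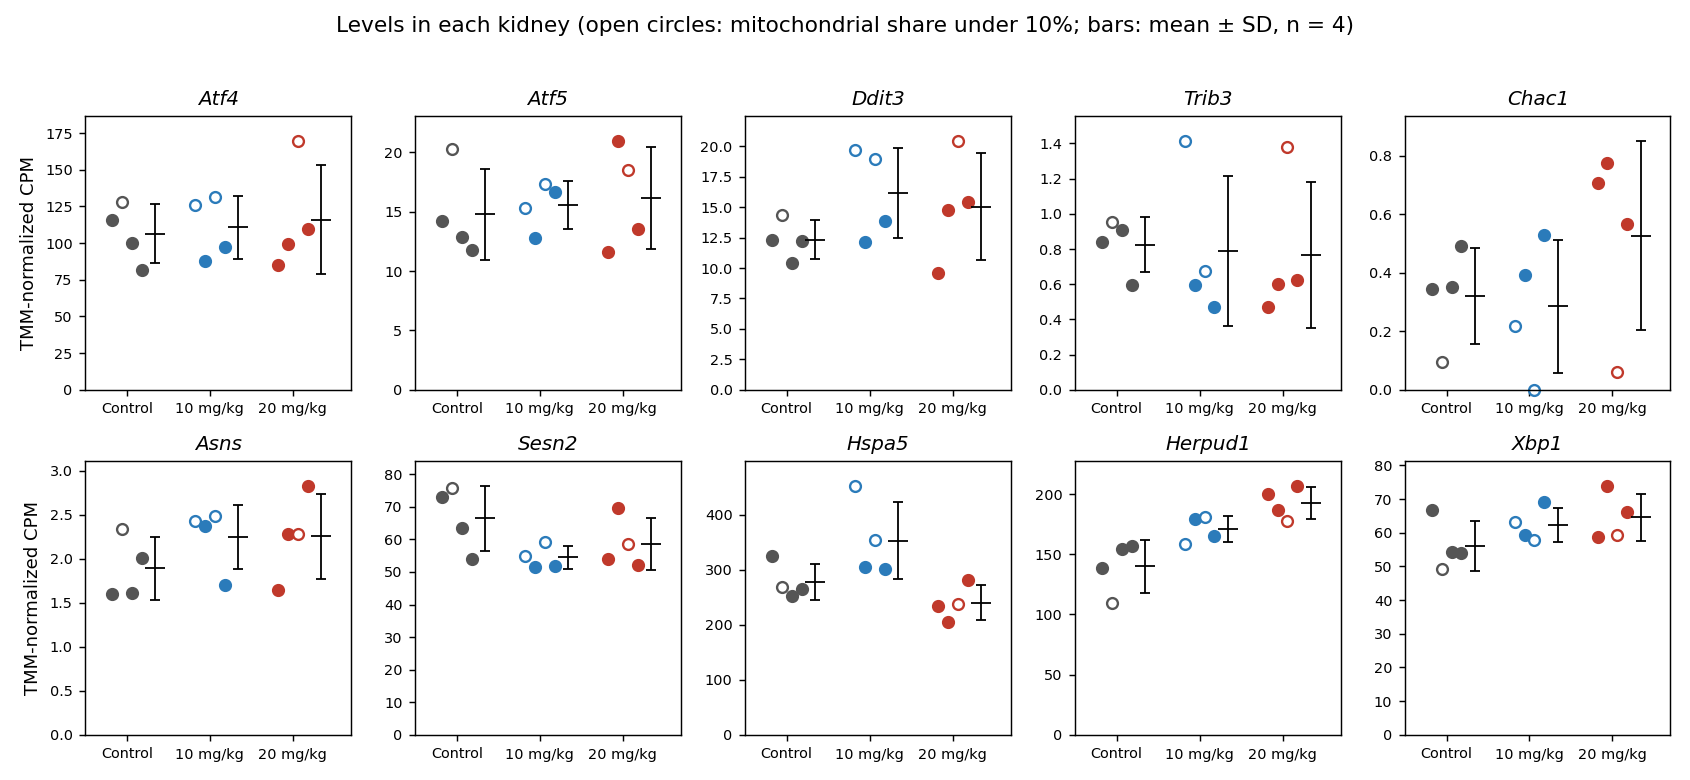
Levels of the 10 genes as TMM-normalized CPM (vertical axis, from 0) in each mouse of the control group and of the groups given 10 or 20 mg CBD/kg b.w. (horizontal axis). Each circle is 1 mouse, open where the mitochondrial share was under 10%, and bars give the mean ± SD of 4 mice. Herpud1 in the treated mice lay above all control mice, and Hspa5 in 20CBD lay below all mice of 10CBD.

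Herpud1 (chr8:95113022-95123141, plus strand), which brings misfolded membrane and secretory proteins to the ubiquitin machinery, had the smallest p of the members in both comparisons with Control. The control mice had 139, 110, 155 and 157 CPM. The mice of 10CBD had 159, 179, 181 and 165 CPM, and those of 20CBD had 200.01, 187, 177 and 207 CPM. Each of the 8 treated mice exceeded the highest control mouse, and the ranges of the doses overlapped. Mice of the groups did not overlap for 1 of the 9 members in each of these comparisons, while 3.19% of all genes were without overlap in 10CBD and 5.30% in 20CBD. The log2 fold change was 0.29 ± 0.13 (SE, n = 4 mice per group) in 10CBD, a 1.22-fold level (95% interval 1.01 to 1.47, adjusted p = 0.830). In 20CBD it was 0.46 ± 0.13, a 1.38-fold level (1.14 to 1.66, adjusted p = 0.304). Exact permutation tests of log2 CPM gave p = 0.0286 in both, the smallest that 4 mice against 4 allow. Between the doses the log2 fold change was 0.17 (95% interval -0.099 to 0.44, adjusted p = 0.872), an interval that includes both signs.

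The call for Herpud1 in 20CBD depended on the test. DESeq2 gave a log2 fold change of 0.46 with an adjusted p of 0.0563, and edgeR with the mitochondrial share as a covariate gave 0.43 with an adjusted p of 0.0398, in a fit that called 8.08% of all genes. Over all alternatives the adjusted p ranged from 0.0398 to 0.590 and the log2 fold change from 0.36 to 0.52. In the 8 libraries with a mitochondrial share over 10%, the difference was 0.40 in 20CBD (adjusted p = 0.190) and 0.19 in 10CBD (adjusted p = 0.948). The lowest of the 12 values was that of Control replicate 2, a library with a low mitochondrial share, and without it the value in 10CBD was 0.19 in place of 0.29.

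Hspa5 (chr2:34661982-34668880, plus strand) was lower in value at 20 mg than at 10 mg. The control mice had 325, 268, 252 and 264 CPM. Mice given 10 mg had 452, 306, 353 and 301 CPM, and mice given 20 mg had 235, 205, 238 and 282 CPM. Every mouse of 20CBD lay below every mouse of 10CBD, while both treated groups overlapped with Control. Between the doses, Hspa5 was the only member without overlap, and 3.10% of all genes were without overlap there. The log2 fold change between the doses was -0.56 ± 0.15 (SE), a 0.679-fold level in 20CBD (95% interval 0.542 to 0.852, adjusted p = 0.758, exact permutation test p = 0.0286). By its unadjusted p of 0.00244 it stood 40th among the 17163 genes tested. Against Control the log2 fold change was 0.35 ± 0.15 in 10CBD (adjusted p = 0.836) and -0.21 ± 0.15 in 20CBD (adjusted p = 0.777). Low mitochondrial shares went with part of these values. The highest level was that of 10CBD replicate 1, whose mitochondrial share was the lowest, and without this mouse the value in 10CBD against Control was 0.20. In the 8 libraries with a share over 10%, the log2 fold change between the doses was -0.33 (95% interval -0.65 to -0.0082, adjusted p = 0.973), and that of 10CBD against Control was 0.11 (-0.21 to 0.43).

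Xbp1 (chr11:5470606-5483027, plus strand), the transcription factor that IRE1 activates, differed little. The levels were 66.7, 49.2, 54.3 and 53.9 CPM in Control, 63.2, 59.4, 57.8 and 69.0 CPM in 10CBD and 58.8, 73.8, 59.3 and 66.3 CPM in 20CBD. The groups overlapped, and the log2 fold changes were 0.15 (95% interval -0.11 to 0.42) in 10CBD and 0.20 (-0.058 to 0.47) in 20CBD, so that a rise of up to 1.38-fold at the higher dose lies within the interval. The spread of Xbp1 between mice of a group was small, an SD of 0.154 on the log2 scale, at percentile 12.1 of all genes tested.

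Atf4 (chr15:80139372-80141745, plus strand), the transcription factor at the centre of the response, had 116, 128, 100.3 and 81.4 CPM in Control, 126, 88.0, 132 and 97.3 CPM in 10CBD and 85.0, 99.5, 170 and 109 CPM in 20CBD. The 3 groups overlapped throughout. The log2 fold changes were 0.058 ± 0.21 (95% interval -0.38 to 0.50, adjusted p = 0.981) in 10CBD and 0.12 ± 0.21 (-0.32 to 0.57, adjusted p = 0.921) in 20CBD. A change of 1.48-fold at the higher dose would still lie within the interval. The level of Atf4 moved with the mitochondrial share: the 4 libraries with a low mitochondrial share had 126 to 170 CPM and the other 8 had 81.4 to 116 CPM, without overlap, and the part of this share in the levels was not tested. Within those 8, the log2 fold changes were -0.10 in 10CBD and -0.016 in 20CBD, the opposite sign of the values over all mice.

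Atf5 (chr7:44461680-44466082, minus strand), a related factor that acts in mitochondrial and ER stress, ranged from 11.7 to 20.3 CPM in Control, from 12.8 to 17.3 CPM in 10CBD and from 11.6 to 21.0 CPM in 20CBD. Its log2 fold changes were 0.072 and 0.13, with 95% intervals of -0.36 to 0.51 and -0.31 to 0.56.

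Ddit3 (chr10:127124268-127132163, plus strand) encodes CHOP, the factor that links lasting ER stress to cell death. It had 12.3, 14.4, 10.4 and 12.2 CPM in Control, 19.7, 12.1, 19.0 and 13.9 CPM in 10CBD and 9.61, 14.8, 20.5 and 15.4 CPM in 20CBD. The 3 highest mice, replicates 1 and 3 of 10CBD and replicate 3 of 20CBD, all had a low mitochondrial share, and the groups overlapped. The log2 fold changes were 0.39 ± 0.21 (adjusted p = 0.872) and 0.29 ± 0.21 (adjusted p = 0.783). Without 20CBD replicate 3 the value in 20CBD was 0.10. In the 8 libraries with a share over 10%, the log2 fold changes of Ddit3 were 0.16 and 0.19. With the mitochondrial share as a covariate, Ddit3 in 20CBD had a log2 fold change of 0.42 and an adjusted p of 0.0993, and was then called, as were 8.08% of all genes in that fit. Gene positions are those of GENCODE on GRCm39. Exons of Ddit3 share 3576 bases with Mars1 on the opposite strand, those of Hspa5 share 2457 bases with Rabepk and those of Xbp1 share 1526 bases with Ccdc117, and whether the counting used strand is not given in the sources used here.

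The targets of ATF4 and CHOP with low counts could be judged only within wide limits. Trib3 (chr2:152179337-152191958, minus strand), a pseudokinase that restrains ATF4 and AKT signalling, had 8 to 32 counts per library. Its levels were 0.840, 0.954, 0.907 and 0.598 CPM in Control, 1.41, 0.594, 0.678 and 0.470 CPM in 10CBD and 0.469, 0.599, 1.38 and 0.621 CPM in 20CBD. One mouse in each treated group stood high, and both had a low mitochondrial share. The log2 fold changes were -0.040 (95% interval -0.92 to 0.84) and -0.11 (-0.99997 to 0.78). In the 8 libraries with a mitochondrial share over 10%, they were -0.57 (95% interval -1.59 to 0.46) in 10CBD and -0.47 (-1.36 to 0.41) in 20CBD. Among all genes tested, Trib3 was at percentile 83.3 for spread between mice of a group.

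Chac1 (chr2:119180757-119184866, plus strand), an enzyme that degrades glutathione and a sensitive target of ATF4, had 8, 2, 7 and 9 counts in Control, 5, 6, 0 and 9 counts in 10CBD and 12, 13, 1 and 10 counts in 20CBD. The 4 libraries with a low mitochondrial share held the 4 lowest levels, at most 0.219 CPM, against 0.343 to 0.773 CPM in the others, which is the reverse of the order of Atf4. With no filter on low counts, its log2 fold change was -0.23 (95% interval -1.45 to 1.00) in 10CBD and 0.72 (-0.44 to 1.87, adjusted p = 0.789) in 20CBD.

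Asns (chr6:7671667-7728461, minus strand), asparagine synthetase, had 28 to 55 counts per library and 1.60, 2.34, 1.61 and 2.01 CPM in Control, 2.43, 2.38, 2.48 and 1.70 CPM in 10CBD and 1.64, 2.27, 2.28 and 2.82 CPM in 20CBD. The log2 fold change was 0.26 ± 0.24 at both doses (adjusted p = 0.920 and 0.840), and the groups overlapped. Sesn2 (chr4:132219335-132237815, minus strand), a stress protein that restrains mTORC1 when leucine is short, had 72.9, 75.7, 63.4 and 53.9 CPM in Control, 55.0, 51.6, 59.3 and 51.9 CPM in 10CBD and 54.1, 69.7, 58.5 and 52.1 CPM in 20CBD. The mice of 10CBD lay between 51.6 and 59.3 CPM, 2 of them below the lowest control mouse. The log2 fold changes were -0.29 ± 0.13 (95% interval -0.57 to -0.0088, adjusted p = 0.859) and -0.18 ± 0.13 (adjusted p = 0.774). The sign of Sesn2 was thus the reverse of that of Herpud1 at both doses.

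**Figure D2:**
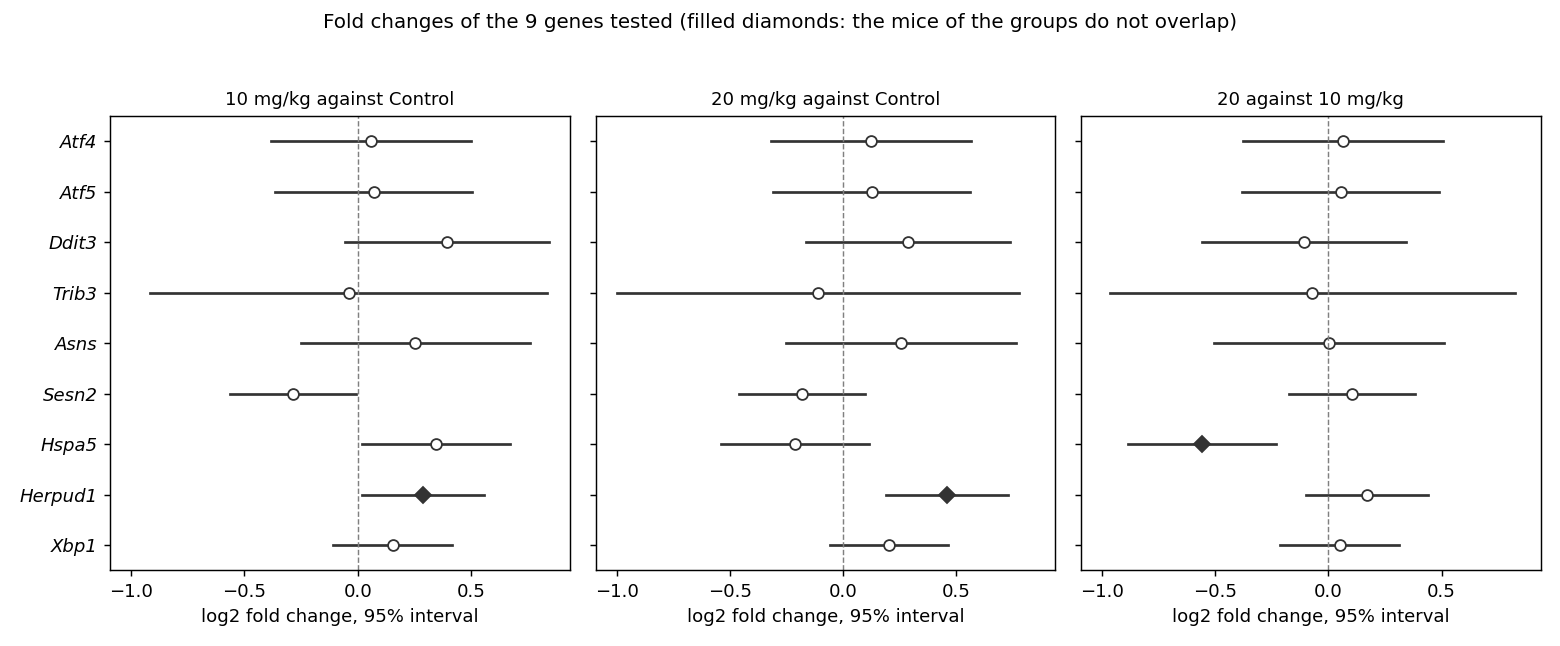
Log2 fold changes of the 9 members tested, with 95% intervals from the edgeR fit (horizontal axis), in each of the 3 comparisons. Diamonds mark genes whose mice did not overlap between the groups. Herpud1 is marked in both comparisons with Control (0.29 and 0.46) and Hspa5 between the doses (-0.56), and the interval of Trib3 is the widest.

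The relatives of these genes were described from 8 lists of 78 other genes of the same pathways, of which 75 were tested. In 10CBD, 0 of the 75 were called and 4 had an unadjusted p under 0.05. In 20CBD, 1 was called and 9 had an unadjusted p under 0.05, and between the doses 0 were called and 14 had an unadjusted p under 0.05. Of all genes tested, 0.0291%, 0.303% and 0% were called and 5.67%, 8.45% and 6.31% had an unadjusted p under 0.05 in the same order. DESeq2 called 0, 1 and 0 of the 75, beside 0.233%, 1.06% and 0.0699% of all genes. The median log2 fold change of the 75 genes was 0.0069 in 10CBD, -0.12 in 20CBD and -0.099 between the doses.

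The gene called was Ddit4 (REDD1), an inhibitor of mTORC1 that ATF4, glucocorticoids and hypoxia are all known to induce. It had 16.1, 10.97, 13.6 and 8.16 CPM in Control, 10.96, 12.4, 14.0 and 23.0 CPM in 10CBD and 24.7, 27.4, 27.3 and 25.1 CPM in 20CBD. All mice of 20CBD lay above all other mice. Ddit4 rose by 1.09 ± 0.23 (log2, SE) in 20CBD against Control (adjusted p = 0.0849), and had a log2 fold change of 0.79 against 10CBD (adjusted p = 0.758). The call was lost without any 1 of the 4 control mice or of the 4 mice of 20CBD, and without 10CBD replicate 3, with adjusted p-values up to 0.273. In the 8 libraries with a mitochondrial share over 10% the log2 fold change was 1.02 (adjusted p = 0.0572). Of the other partners and regulators of ATF4, Eif4ebp1, a repressor of translation, had a log2 fold change of 0.32 ± 0.15 in 20CBD (adjusted p = 0.578). Cebpb had 1.04 ± 0.44 (adjusted p = 0.533), and 0.55 without 20CBD replicate 3, where its level was 22.6 CPM. Cebpb was called with the mitochondrial share as a covariate (adjusted p = 0.0448), in a fit that called 8.08% of all genes. It was also called with no filter on low counts (adjusted p = 0.000145), where 1.04% were called. Between the doses, Eif4ebp1 had 0.60 ± 0.15 (adjusted p = 0.758) and Gdf15 had 0.83 ± 0.31 (adjusted p = 0.758). Atf3 had -0.85 ± 0.34 (adjusted p = 0.763), and each of these genes was without overlap. Atf3 had only 7 to 50 counts per library. Its highest levels in 10CBD, 2.12 and 2.26 CPM in replicates 1 and 3, came from libraries with a low mitochondrial share. So did its lowest in 20CBD, 0.420 CPM in replicate 3. Over all alternatives the log2 fold change of Atf3 between the doses ranged from -1.01 to -0.28. By its unadjusted p of 0.00111, Eif4ebp1 stood 18th among the 17163 genes tested.

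Chaperones and folding enzymes of the ER, 16 genes beside Hspa5, mostly had lower values at the higher dose, as Hspa5 did. Between the doses 13 of 16 had a negative log2 fold change, with a median of -0.23 beside -0.0033 for all genes, and 0 were called. At an unadjusted p under 0.05 there were 6, of which Hyou1, Pdia6, Hsp90b1, Calr and Manf had a negative value and Ero1b a positive one, and 4 were without overlap, all lower in 20CBD, which is 25% of the list beside 3.10% of all genes. In 20CBD against Control 12 of 16 were negative with a median of -0.17, and in 10CBD 11 of 16 were positive with a median of 0.058. Negative values between the doses were not particular to the chaperones. They were found in 10 of 12 aminoacyl-tRNA synthetases, 9 of 12 genes of ER-associated degradation and 51 of all 75 pathway genes. Of the 75 genes, 13.3% were without overlap. Among the 9 tested partners and regulators of ATF4 44.4% were without overlap, and 7 of these 9 genes were positive.

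Pdia6, a disulfide isomerase that also tunes IRE1, had 128, 158, 114 and 113 CPM in Control, 153, 105, 123 and 109 CPM in 10CBD and 85.3, 75.4, 99.8 and 98.6 CPM in 20CBD. All mice of 20CBD were below all mice of the other groups. Its log2 fold change in 20CBD was -0.51 ± 0.15 (adjusted p = 0.347), and in 10CBD it was -0.069. Hyou1, a chaperone that works as exchange factor of BiP, had 51.8, 50.8, 45.04 and 63.01 CPM in 20CBD, against 61.7 to 74.9 CPM in Control and 63.5 to 87.5 CPM in 10CBD. The log2 fold change was -0.40 ± 0.13 against Control (adjusted p = 0.391) and -0.51 ± 0.13 against 10CBD (adjusted p = 0.758). Hsp90b1 (GRP94), the ER form of HSP90, had a log2 fold change of -0.58 ± 0.20 between the doses, with 508 CPM in 10CBD replicate 1 and 180 to 361 CPM in the other treated mice. Sdf2l1, a co-chaperone of BiP with 34 to 82 counts per library, was lower in all mice of 10CBD (1.72 to 2.31 CPM) than in all control mice (2.61 to 3.91 CPM). Its log2 fold change there was -0.62 ± 0.21 (adjusted p = 0.812), and -0.37 (adjusted p = 0.964) in the 8 libraries with a mitochondrial share over 10%. In 20CBD against Control, Sdf2l1 had -0.39 ± 0.20 (adjusted p = 0.650) over all mice.

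In the 8 libraries with a mitochondrial share over 10%, the log2 fold change between the doses was -0.30 for Pdia6, -0.28 for Hyou1, -0.21 for Hsp90b1 and -0.072 for Calr, against -0.44, -0.51, -0.58 and -0.46 over all mice. Without 10CBD replicate 1 alone, Hsp90b1 had -0.34 and Calr -0.21. Against Control, Pdia6 in 20CBD had -0.45 in these libraries (adjusted p = 0.165). With the mitochondrial share as a covariate, Pdia6 in 20CBD had -0.41 and an adjusted p of 0.0368, in a fit that called 8.08% of all genes.

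**Figure D3:**
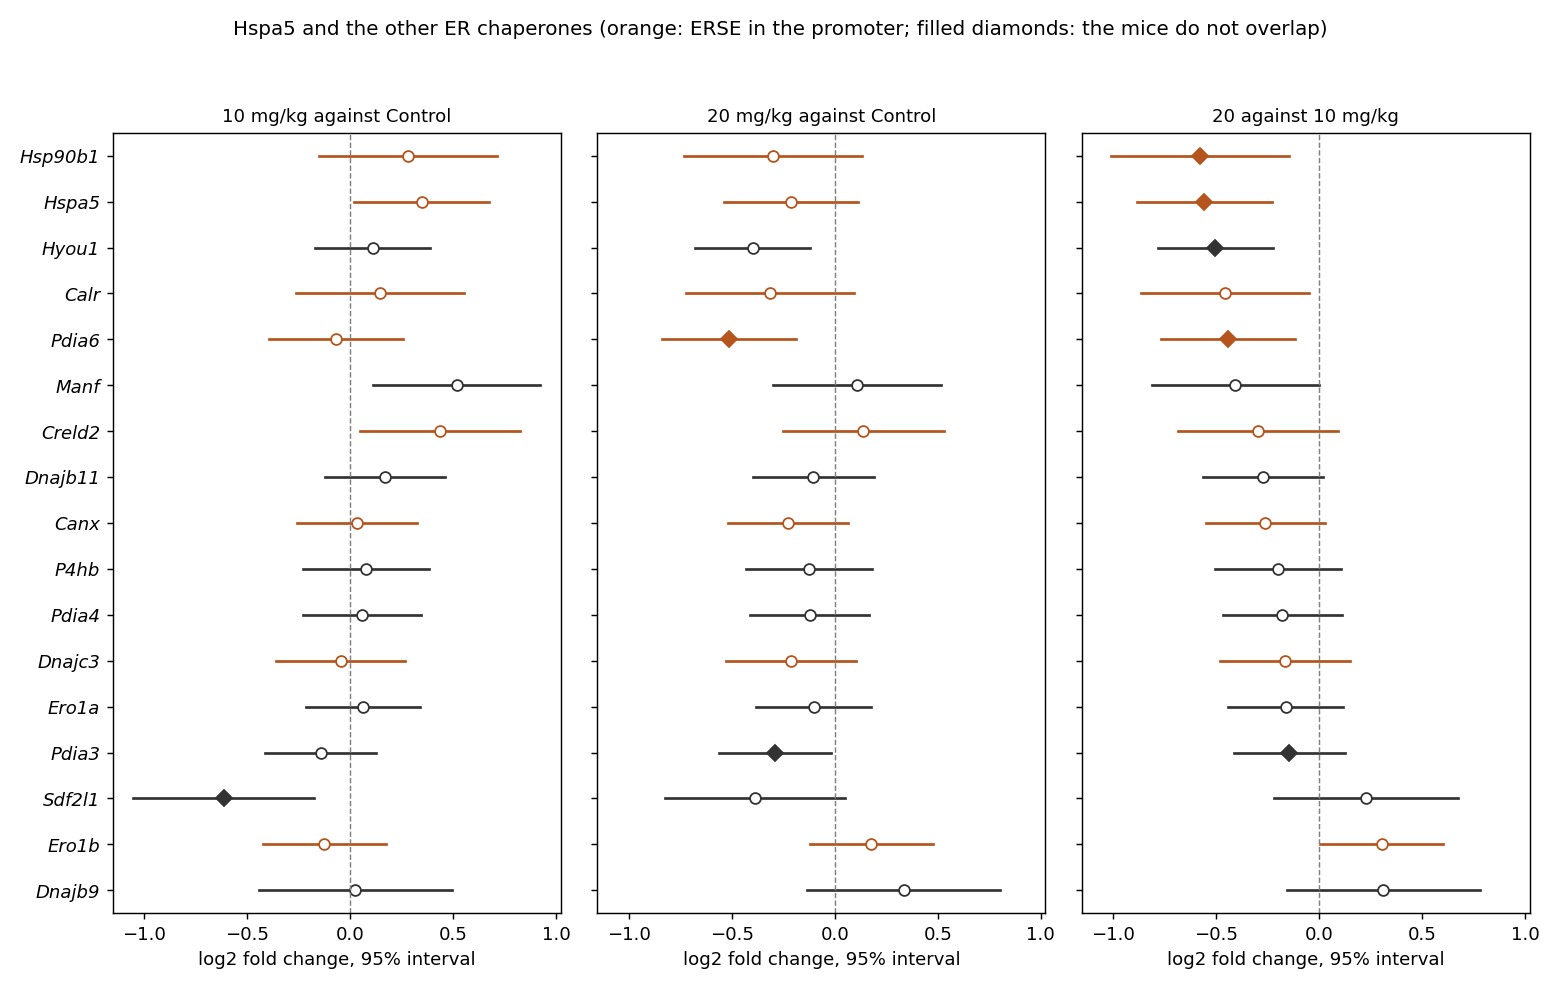
Log2 fold changes with 95% intervals (horizontal axis) of Hspa5 and of 16 other ER chaperones and folding enzymes, ordered by their value between the doses. Orange marks genes with an ERSE in the 250 bases before the start, and diamonds mark genes whose mice did not overlap. In the comparison of the doses, 14 of the 17 genes lie below 0.

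Some of the chaperones held the promoter element of Hspa5. Of the 16, 7 held an ERSE (Hsp90b1, Calr, Canx, Pdia6, Dnajc3, Creld2 and Ero1b), Hyou1 and Manf held an ERSE-II, and the other 7 held neither. All elements of these chaperones are shown beside that of Hspa5 in GRCm39 so that their fixed and variable letters can be compared, each read in the orientation of the motif with the fixed letters in capitals.
Hspa5, ERSE, chr2:34662037-34662055: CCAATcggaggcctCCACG
Hsp90b1, ERSE, chr10:86541502-86541520: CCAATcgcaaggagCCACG
Hsp90b1, ERSE, chr10:86541397-86541415: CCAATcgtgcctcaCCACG
Calr, ERSE, chr8:85573704-85573722: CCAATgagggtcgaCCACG
Canx, ERSE, chr11:50216627-50216645: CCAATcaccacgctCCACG
Pdia6, ERSE, chr12:17316492-17316510: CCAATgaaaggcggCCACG
Dnajc3, ERSE, chr14:119175239-119175257: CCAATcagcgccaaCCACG
Creld2, ERSE, chr15:88703723-88703741: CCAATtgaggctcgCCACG
Ero1b, ERSE, chr13:12580563-12580581: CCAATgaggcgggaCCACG
Hyou1, ERSE-II, chr9:44290661-44290671: ATTGGgCCACG
Hyou1, ERSE-II, chr9:44290762-44290772: ATTGGtCCACG
Manf, ERSE-II, chr9:106769238-106769248: ATTGGtCCACG
In all, 25 promoters of the genome held an ERSE, and 16 of these genes were tested. Between the doses 12 of the 16 had a negative log2 fold change, with a median of -0.21. In 20CBD against Control 10 of 16 were negative with a median of -0.15, and in 10CBD 8 of 16 were negative with a median of 0.015. These genes and the chaperones overlap, and of the 6 tested genes with an ERSE that are in none of the lists, 4 were negative between the doses, with a median of -0.056. The 9 tested genes with an ERSE-II, Herpud1 among them, had medians of 0.058 in 10CBD, 0.18 in 20CBD and 0.15 between the doses.

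The other lists held no called gene. The 12 genes of ER-associated degradation, the pathway of Herpud1, had medians of -0.014 in 10CBD and -0.097 in 20CBD, and Syvn1, the ubiquitin ligase that Herpud1 serves, had -0.31 ± 0.17 in 20CBD (adjusted p = 0.680). The ER stress sensors had 4 of 4 negative values in 20CBD, among them Atf6b with -0.40 ± 0.14 (adjusted p = 0.466). Of 12 aminoacyl-tRNA synthetases, which ATF4 induces, 9 were negative in 20CBD, with -0.36 ± 0.14 for Aars1 (adjusted p = 0.503) and -0.25 ± 0.11 for Eprs1 (adjusted p = 0.560). Among the kinases and phosphatase subunits of eIF2, Eif2ak3 (PERK), the kinase of the ER, had -0.30 ± 0.16 (adjusted p = 0.637). In serine, one-carbon and proline synthesis, Phgdh had -0.45 ± 0.21 (adjusted p = 0.597), and of the amino acid transporters Slc1a4 had 0.40 ± 0.18 in 10CBD (adjusted p = 0.865), and 0.25 without 10CBD replicate 1.

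**Figure D4:**
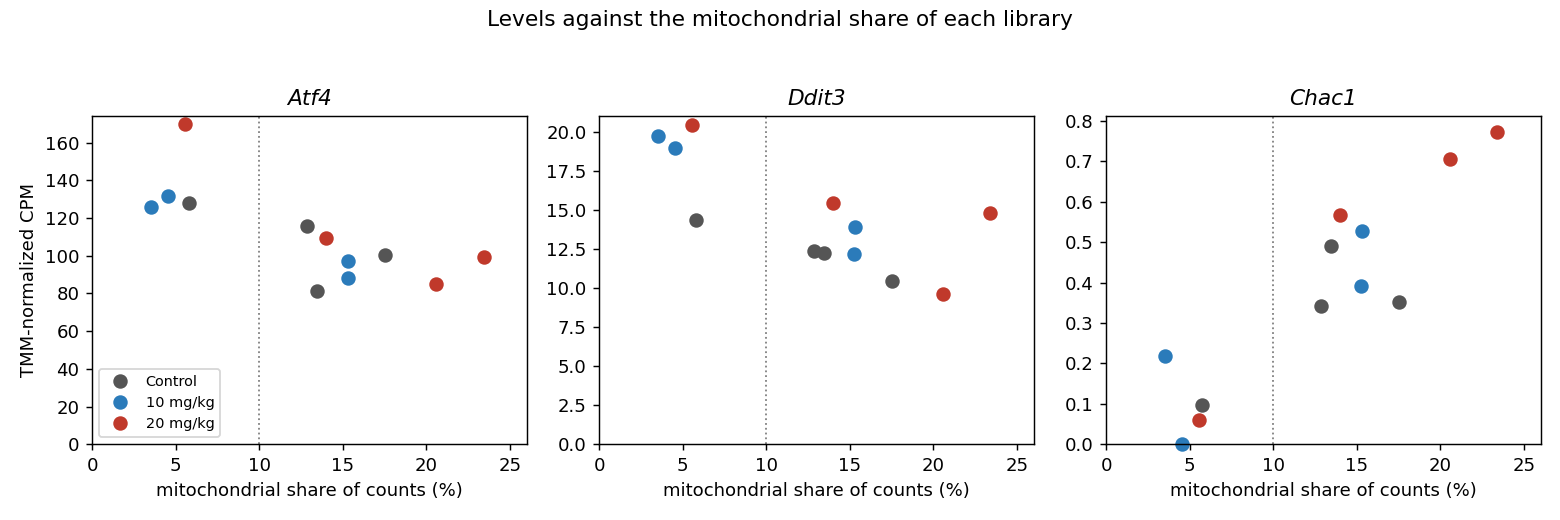
Level of Atf4, Ddit3 and Chac1 as TMM-normalized CPM (vertical axis, from 0) against the share of counts on mitochondrial genes in percent (horizontal axis) in each of the 12 libraries, coloured by group, with a dotted line at 10%. The 4 libraries left of the line hold the 4 highest levels of Atf4 (126 to 170 CPM) and the 4 lowest of Chac1 (at most 0.219 CPM).

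Members were also compared across mice, with group means removed, in 36 pairs of the 9 tested members. Pearson's r was 0.86 for Atf4 with Ddit3, 0.81 for Atf4 with Trib3 and 0.81 for Atf5 with Sesn2, and these 3 pairs had an adjusted permutation p of 0.0998 each over the 36 pairs. Spearman's rho was 0.85, 0.85 and 0.83, with adjusted permutation p of 0.0729, 0.0729 and 0.0903. Leaving out the 2 mice with the most extreme values of the first gene, r was 0.75, 0.66 and 0.64. The libraries form separate sets by mitochondrial share, and within the 8 of higher share r was 0.53 (permutation p = 0.25), 0.69 (p = 0.181) and 0.78 (p = 0.0417). The smallest p that the 72 arrangements of these 8 libraries allow is 0.0139, so a single pair could not pass the threshold over 36 pairs. With the mitochondrial share regressed out, r was 0.48 for Atf4 with Ddit3 and 0.50 for Atf4 with Trib3 (adjusted permutation p = 0.498 each), while Atf5 with Sesn2 stayed at 0.82 (adjusted permutation p = 0.134). Pairs of Hspa5 with Herpud1 (r = -0.081) and of Xbp1 with Herpud1 (r = 0.11) had an adjusted permutation p of 0.844 each. Within the 8 libraries, r was -0.011 and -0.89 (permutation p = 0.972 and 0.0417). Herpud1 had r = -0.75 with Atf5 and -0.62 with Sesn2 over all 12 libraries (adjusted permutation p = 0.121 and 0.296). Within the 8 libraries these were -0.77 and -0.84 (permutation p = 0.0417 and 0.0139).

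By the same measure over 12 libraries, the genes whose pattern was most like that of Atf4 were Vamp8 (r = 0.98), Zfas1, Haus7, Micos13 and Stmp1 (r = 0.98 each), all ahead of the pathway genes, of which Cebpb came first at rank 310 of 17162. For Hspa5 they were Gm6477 (r = 0.95), Gm45588 (0.94), Trim37 (0.94), Ppic (0.93) and Gpc3 (0.93), and the first pathway genes were Creld2 at rank 29 (r = 0.88), Slc3a2 at rank 58 and Hsp90b1 at rank 84.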

How the data were processed

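Kidney tissue of 12 mice, 1 library per mouse, was sequenced from poly(A) RNA with a directional kit. The authors checked reads with FastQC 0.11.9, aligned them to GRCm39 with STAR 2.7.5c and counted them per gene with HTSeq 1.99.2, and deposited the counts without normalization. The annotation release and the strand setting are not given in the sources used here. Symbols came from GENCODE for 99.0% of the 57180 identifiers. Of 66 pairs of libraries, 0 were identical.

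Counts were normalized by TMM, filtered with filterByExpr and tested by edgeR 4.0.16 (R 4.3.3) with its quasi-likelihood test, 1 mean per group over all 12 libraries, with Benjamini-Hochberg adjustment over 17163 genes and a threshold of 0.1. The authors compared the groups with DESeq2, and DESeq2 1.42.0 was used here as an alternative. Correlations used log2 CPM with a prior count of 2 and permutations of mice within groups. Of 45 planned pairs of members, 36 could be formed since Chac1 was filtered out. Beside the members, the genes named are those of each pathway list that were called or had the 3 smallest p in the comparisons with Control, the 5 most like Atf4 and Hspa5, and marker genes that moved with a result. Hsp90b1, Calr, Creld2, Manf, Ero1b, Slc3a2, Gdf15, Atf3 and the other marker genes were named after their values were seen where this rule did not name them.

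The members and lists were chosen with earlier results of these data known. The labels name separate mice, so the p-values measure the spread between mice. Intervals from the fit cover the spread between mice and counting error.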

Additional observations from a re-analysis of the deposited data

Results flagged for a closer look

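Trib3 in 20CBD replicate 3 had 1.38 CPM, while the other 3 mice of the group had 0.469 to 0.621 CPM. Asns in 10CBD replicate 4 had 1.70 CPM, below the 2.38 to 2.48 CPM of the others. Slc1a4, an amino acid transporter, had 17.1 CPM in 10CBD replicate 1 and 12.01 to 12.3 CPM in the others. Each of these mice stood far from the rest of its group by Dixon's 95% criterion. Of 87 groups of 4 mice examined, 3 were marked in this way, and chance marks about 5% of groups. The mitochondrial share was low in the libraries of Trib3 and Slc1a4 named here and was 15.3% in that of Asns, and its part was not tested.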

How the results depend on the processing

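Of 591 member fold changes under alternative settings, 546 kept their sign and side of the threshold, 42 changed sign and 3 passed the threshold. Those of Herpud1 and Hspa5 kept their sign in all 132. In 20CBD against Control, DESeq2 called 1 member and the mitochondrial covariate called 2. The pathway genes called there were 3 with no filter, 4 with the covariate, 0 with the replicate block and 0 to 1 when 1 mouse was left out. Between the doses 3 were called with no filter and 1 with the covariate. The member pairs called were 0 with the mitochondrial share regressed out, 0 in the 8 libraries, where 72 arrangements allow no p under 0.0139 and so nearly fix this count, and 0 to 3 when 1 mouse was left out.

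Signs changed for log2 fold changes near 0. With the covariate, Atf4 in 10CBD had -0.074 and Trib3 in 20CBD 0.034, and between the doses Ddit3 had 0.16, Trib3 0.35 and Xbp1 -0.018. In the 8 libraries, a setting chosen after seeing the data, Atf4 had -0.10 in 10CBD and -0.016 in 20CBD, and between the doses Ddit3 had 0.031 and Trib3 0.092. Asns between the doses had -0.0052 with RLE, -0.0070 with DESeq2, -0.0024 with 10 counts in every library, -0.0016 without mitochondrial genes and -0.017 with the replicate block. Leaving out 1 mouse gave ranges in 10CBD of -0.053 to 0.16 for Atf4, -0.026 to 0.26 for Atf5 and -0.50 to 0.13 for Trib3. In 20CBD they were -0.12 to 0.24 for Atf4, -0.025 to 0.32 for Atf5 and -0.55 to 0.061 for Trib3. Between the doses they were -0.18 to 0.19 for Atf4, -0.094 to 0.18 for Atf5, -0.29 to 0.057 for Ddit3, -0.51 to 0.39 for Trib3, -0.13 to 0.13 for Asns and -0.020 to 0.10 for Xbp1. The cause was not tested.

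Samples with the same replicate number share only that number: 4 of 12 such pairs had a correlation of deviations over 0.1 (range -0.33 to 0.32). With the replicate block, Ddit4 in 20CBD had 1.09 (adjusted p = 0.182), and 27 genes were called in 20CBD in place of 52. Over all genes, the calls in 10CBD, 20CBD and between the doses were 40, 182 and 12 with DESeq2, 331, 416 and 256 with no filter, 15, 1386 and 62 with the covariate and 26, 107 and 0 in the 8 libraries. The low counts of Trib3, Asns and Chac1 limit what can be seen for them.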
